A study of Nothobranchius furzeri with 10 samples.

Results

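In brains of the turquoise killifish, 123 genes stood lower in every library from exercised fish than in every library from fish without exercise. They were taken from 26739 annotated genes, of which 14163 had a mean of 5 or more counts in each 1000000 of a library (CPM). A gene was a member when its highest exercise CPM lay below its lowest control CPM and its mean control CPM was at least 1.2 times its mean exercise CPM. The members were thus chosen by their values in this very contrast, so their levels and ratios are given as a description and not as a test.

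Nothobranchius furzeri is an annual fish with a short life span, used in the study of ageing. All 10 libraries came from male fish aged 10 weeks of line 4010, Tg(mylz2:egfp,tfam). The 5 exercise libraries were from fish placed in a swim tunnel, and the 5 control libraries from fish with no perturbation. The controls carried the same transgene, so no library shows a brain without it. By its name the transgene uses the promoter of mylz2, which encodes a myosin light chain of fast skeletal muscle. By that name it expresses egfp, a fluorescent reporter, and tfam, a factor that packages mitochondrial DNA and helps to start its transcription. The labels give no duration of swimming, no time to dissection and no batch or tank. They do not say that each library is a separate fish, so the spread between libraries may be technical. The library names are numbered in a separate block for each group. Differences between the groups in handling, or in any order that these numbers reflect, cannot be told apart from exercise.

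As background, the brain holds neurons, glia, vessel cells and blood, and RNA from whole brain is a sum over them. In mammals, physical activity is known to act on brain blood flow, on synaptic growth factors and on the early-response genes of active neurons. In such bulk RNA, fewer cells of a type and less RNA per cell cannot be told apart. Neither deposited table gives gene names beside its identifiers, and 0 of the 26739 identifiers matched the RefSeq gene table. The brain label was therefore not checked against marker genes, and no member is given a role here. The members with the largest and second largest ratio are named by identifier, and all others by their rank from 1 to 123 in order of falling ratio.

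The libraries held between 21.2 M and 38.1 M counts (M, 1000000). No member rested on very few reads: the lowest count of any member in any library was 37. The 123 members together took 0.631% to 0.700% of an exercise library and 0.892% to 0.937% of a control library. Without overlap between the groups, 237 genes were lower in exercise (1.67% of the 14163) and 202 were higher (1.43%). The ratio of 1.2 kept 123 of the 237 (0.868% of the 14163), and the mirrored rule gave 86 genes that were higher in every exercise library (0.607%). A ratio of 1.2 or more was itself more common, at 735 genes, and in 612 of these the groups overlapped.

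**Figure D1:**
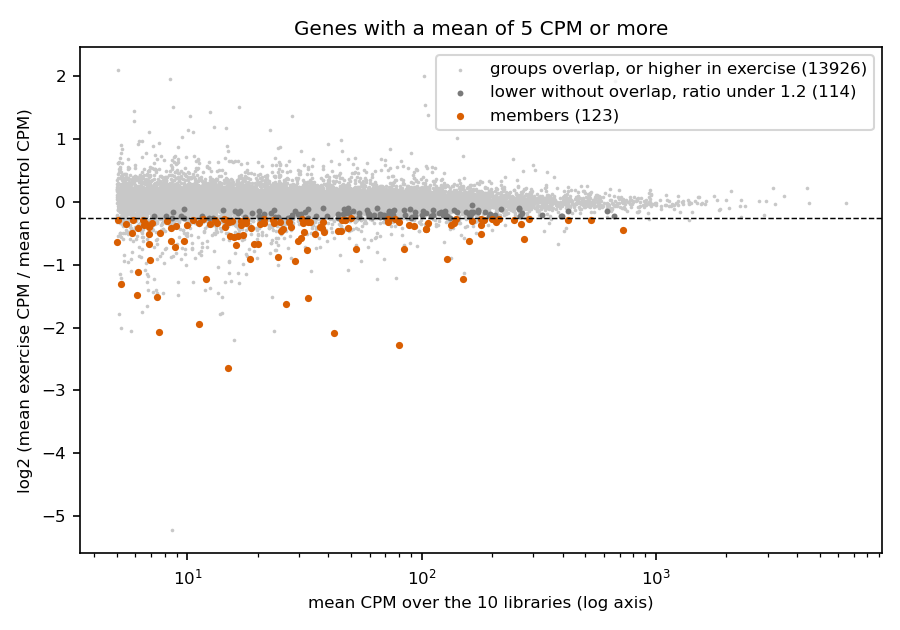
Mean CPM over the 10 libraries (log axis) against the log2 ratio of mean exercise to mean control CPM for the 14163 genes with a mean of 5 CPM or more. The 123 members (orange) lie below the dashed line at a control-to-exercise ratio of 1.2, among 612 further genes at or past that ratio whose groups overlap, and the 114 dark grey genes were lower without overlap but by a smaller ratio.

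Most members differed modestly. The median ratio of control to exercise was 1.31, with quartiles of 1.24 and 1.51 and a highest ratio of 6.28. By size, 61 members had a ratio below 1.3, 31 had one from 1.3 to below 1.5, 18 had one from 1.5 to below 2, and 13 had one of 2 or more. Over all 14163 genes the median ratio was 0.992. The 86 genes of the mirrored rule had a median exercise-to-control ratio of 1.298, close to that of the members, and a highest ratio of 2.26. The upper end of the members thus reached further than that of the mirrored genes, though 5 of the 13 largest ratios owed much of their size to 1 library.

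**Figure D2:**
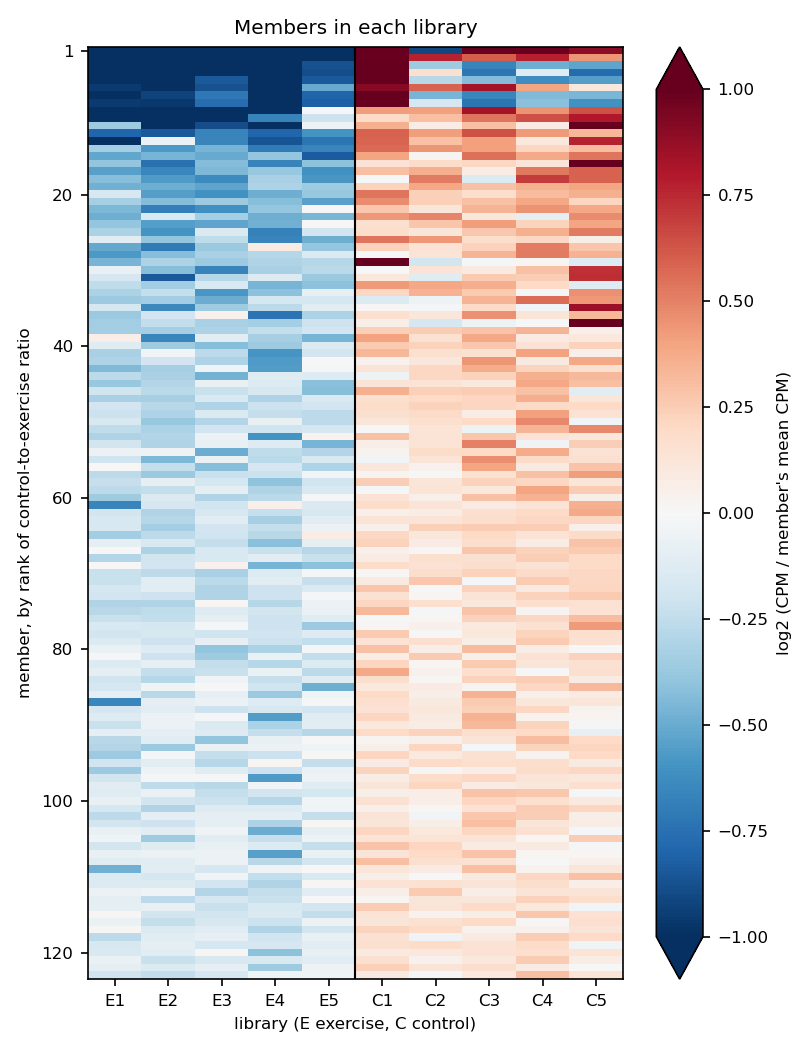
Each row is 1 of the 123 members, ordered by rank of ratio, and each column is a library (E1 to E5 exercise, C1 to C5 control); colour is log2 of CPM over the member's mean CPM, cut at -1 and 1. All members are lower to the left of the line by the rule, the contrast weakens within the first 40 or so ranks, and single dark cells in C1 and C5 mark members with 1 control library far above the other four.

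The member with the largest ratio, Nfu_g_1_021902 (recovered length 5468 bp), was read at 5.64, 6.88, 4.54, 1.28 and 2.08 CPM in exercise replicates 1 to 5. In control replicates 1 to 5 it stood at 30.1, 7.89, 33.3, 29.5 and 27.6 CPM. Control replicate 2 lay close to the exercise libraries, only 1.15 times above the highest of them, while the other 4 controls lay within a narrow range far above. The means were 4.08 ± 2.36 CPM in exercise and 25.7 ± 10.1 CPM in control (SD, n = 5 each), a ratio of 6.28. Raw counts behind these values ran from 37 to 262 in exercise and from 167 to 903 in control libraries. With any 1 library left out the ratio ran from 5.36 (without exercise replicate 4, where the gene was lowest) to 7.58 (without exercise replicate 2).

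The second member, Nfu_g_1_021184 (5443 bp), had the widest gap between the groups. It stood at 39.7, 22.8, 29.4, 24.6 and 20.3 CPM in exercise replicates 1 to 5 and at 159.5, 137, 122, 138 and 109 CPM in control replicates 1 to 5. The lowest control library was 2.75 times the highest exercise library. No library of either group stood apart from its group, and the ratio of 4.87 lay between 4.57 and 5.49 with any 1 of the 10 libraries left out. Its log2 fold change in the edgeR fit was -2.30 ± 0.17 (SE), against -2.66 ± 0.50 for Nfu_g_1_021902, whose libraries were more scattered.

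**Figure D3:**
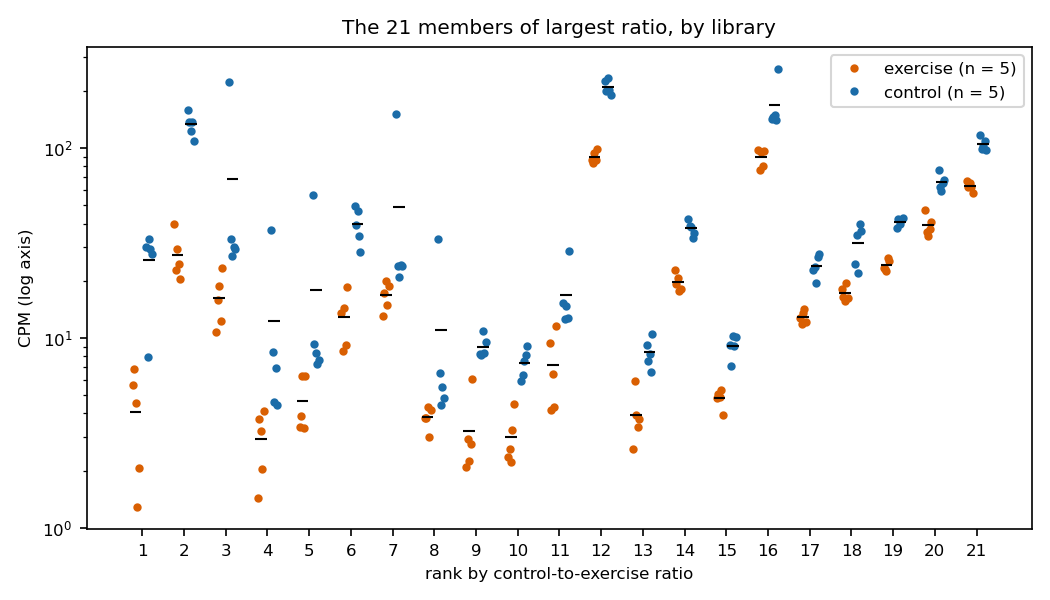
CPM (log axis) in each library for the 21 members of largest ratio, with exercise libraries in orange, control libraries in blue (n = 5 each) and the group means as black bars. At ranks 3, 4, 5, 7 and 8 a single control library, replicate 1, lifts the control mean above the other 4 control libraries. At ranks 2, 6, 12, 14, 19, 20 and 21, among others, no control library stands apart from the rest.

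Of the 13 members with a ratio of 2 or more, 7 kept a ratio of at least 2 whichever 1 library was left out. These were the members of ranks 1, 2, 4, 6, 9, 10 and 12. At rank 12, a gene of 7207 bp stood between 83.7 and 99.1 CPM in exercise libraries and between 189 and 233 CPM in control libraries. Its means were 90.05 ± 6.48 and 209.9 ± 18.5 CPM (SD, n = 5 each), a ratio of 2.33, and the lowest control was 1.91 times the highest exercise library. At rank 6, a gene of 5993 bp went from 39.7 ± 8.62 CPM in control to 12.8 ± 4.11 CPM in exercise libraries (SD, n = 5 each), with exercise replicate 5 the highest of its group at 18.5 CPM and control replicate 5 the lowest at 28.5 CPM. The members of ranks 9 and 10 were weakly expressed, at 3.22 ± 1.63 and 2.99 ± 0.936 CPM in exercise against 9.001 ± 1.18 and 7.40 ± 1.26 CPM in control libraries (SD, n = 5 each). In both, exercise replicate 5 was the highest exercise library, at 6.07 and 4.504 CPM.

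A distinct group of members owed the size of its ratio to control replicate 1. At rank 3, a gene of 2241 bp was read at 224 CPM in control replicate 1 and at 33.1, 26.9, 30.2 and 29.5 CPM in control replicates 2 to 5, against 10.8 to 23.2 CPM in exercise libraries. Its ratio was 4.24 with all libraries and 1.85 without control replicate 1. The member of rank 7 (3118 bp) stood at 151 CPM in that library, between 20.9 and 24.2 CPM in the other controls and between 13.1 and 20.1 CPM in exercise libraries, and its ratio went from 2.90 to 1.38 without it. The members of ranks 4, 5 and 8 showed the same form, at 36.8, 56.6 and 33.3 CPM in control replicate 1 and at no more than 8.46, 9.26 and 6.57 CPM in any other library. Their ratios without it were 2.09, 1.76 and 1.398. The member of rank 29, at 19.3 CPM in control replicate 1 and between 7.51 and 8.65 CPM in the other controls, went from 1.54 to 1.204.

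In these 6 members control replicate 1 stood 2.37 to 7.50 times above the median of the other controls. By the rule, the other controls lie above all exercise libraries in every member, so the 6 stay separated without it by construction. For the 5 members of ranks 3, 4, 5, 7 and 8, the group means were taken from log2(CPM + 1). The pairwise Pearson r of what remained was 0.933 to 0.988 over the 10 libraries. These 5 were singled out because control replicate 1 stood far above every other library. A high r over all libraries is largely given by that choice, so nothing is read from it. Over the pairs of all 6 members, the same group-centred r ran from 0.896 to 0.988 with all libraries. Without control replicate 1 it ran from -0.36 to 0.91, so the 6 did not all move together in the other 9 libraries. That range includes the member outside the 5, and no group-centred range is given for the 5 alone. With the group means left in, r among the 5 was 0.831 to 0.968 without control replicate 1, and the group difference enters these values. Among the 14163 genes, 30 were at least 3 times higher in control replicate 1 than in any other library, and 5 of them were members. The other 25 had a median control-to-exercise ratio of 1.29 without control replicate 1 (1.08 to 1.79), and in 20 of them it was 1.2 or more. No share over all genes without that library is given, so nothing is read from the count of 20. By the same limit of 3 times any other library, 18 genes were so high in exercise replicate 5 and 1 gene in control replicate 5. None of these was a member. By the rule, no exercise library can be the highest of a member.

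**Figure D4:**
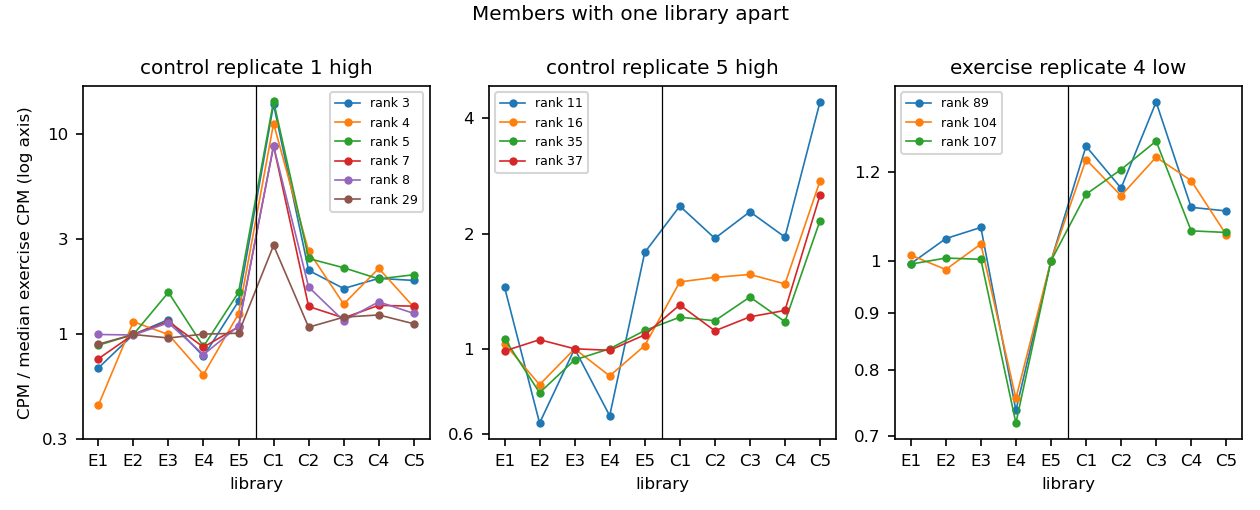
CPM over the median exercise CPM (log axis) in each library (E exercise, C control) for the members in which control replicate 1 stood apart as high (left), control replicate 5 stood apart as high (middle) or exercise replicate 4 stood apart as low (right). In each panel 1 library stands apart from the other 4 of its group, by up to 7.50 times the median of the others on the left, up to 2.08 times in the middle and down to 0.717 times on the right.

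A smaller excess was seen in control replicate 5. At rank 16, a gene of 2094 bp stood at 261 CPM there and between 141 and 149 CPM in the other controls, and between 76.6 and 97.99 CPM in exercise libraries. Without control replicate 5 its ratio was 1.61 in place of 1.87. The members of ranks 11, 35 and 37 were likewise highest in control replicate 5, at 28.7, 27.5 and 34.9 CPM, and their ratios without it were 1.93, 1.26 and 1.19. The last of these would miss the ratio of 1.2. Over the 4 members this library stood 1.81 to 2.08 times above the median of the other controls.

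On the exercise side, replicate 4 was the lowest library of its group in 34 of the 123 members. In 3 of these it stood apart below the others, by the outlier limit given further below. The count of 34 is given without its counterpart over all 14163 genes, so it is not read as particular to the members. The member of rank 107 (8724 bp) was read at 290.2 CPM in exercise replicate 4 and at 401 to 406 CPM in the other exercise libraries, against 428 to 516 CPM in control libraries. The member of rank 104 (6205 bp) stood at 176 CPM there and between 229 and 241 CPM in the other exercise libraries. The ratios of these 2 members and that of rank 89 ran from 1.22 to 1.24 with all libraries and from 1.15 to 1.17 without exercise replicate 4, under the limit of the rule. Over all members, 16 had a ratio under 1.2 without exercise replicate 4, more than for any other library left out (2 to 11). A ratio of 1.2 or more held for 88 of the 123 members whichever 1 library was left out.

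The most counted member, of rank 48 (7182 bp), was also the one whose groups were furthest apart relative to their spread. It stood at 634, 597, 583, 624 and 633 CPM in exercise replicates 1 to 5 and at 822, 851, 839, 824 and 832 CPM in control replicates 1 to 5. The means of 614 ± 22.9 and 834 ± 11.7 CPM (SD, n = 5 each) lay 12.1 pooled SDs apart, although the ratio was only 1.36. The member of rank 19 (2235 bp) followed at 9.05 pooled SDs, with 22.5 to 26.3 CPM in exercise and 37.8 to 42.8 CPM in control libraries. At the other end, the 5 members led by control replicate 1 lay 0.789 to 0.951 pooled SDs apart, since that library widened the control SD. The median over all members was 2.90 pooled SDs.

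Per length, the level in control libraries was highest in the member of rank 100 (369 bp), at 141 CPM per kb, followed by that of rank 91 (618 bp) at 128 CPM per kb. The most counted member came next at 116 CPM per kb. The lowest was that of rank 101 (5647 bp), at 0.982 CPM per kb. The median level of the members in control libraries was 13.05 CPM per kb, against 11.2 CPM per kb for all 14163 genes in the same libraries. In exercise libraries the median of the members was 8.17 CPM per kb, and no value for all genes is given there. The rule chose genes that are higher in control, which shifts these levels, so nothing is read from the comparison. By counts, members had a median mean level of 24.8 CPM (quartiles 11.9 and 71.7), against 30.4 CPM for all 14163 genes (quartiles 13.7 and 70.1).

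Gene length, which the rule did not use, had a median of 3136 bp in the members (quartiles 1469 and 5456 bp, range 315 to 9713 bp). This was near the median of 3077 bp for all 14163 genes. The genes of the mirrored rule had a median of 4230 bp. Median length was greater at higher CPM in members and in all genes alike. The 68 members with a mean of 20 CPM or more had a median of 4234 bp, against 3762 bp for the 8973 genes at that level. The 55 members under 20 CPM had one of 2508 bp, against 2128.5 bp for all genes under it. CPM is not divided by length, so longer genes gather more counts, and this order is partly given by the measure.

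The gap that parts the groups was narrow in most members. The lowest control library exceeded the highest exercise library by a median factor of 1.05, by less than 1.1 in 88 members, and by 1.2 or more in 16. In 36 members this gap was larger than 1.96 times the counting error of the 2 libraries that bound it, and in 87 it was not. The rule itself required a positive gap between these 2 extreme libraries, so the counts are a description and not a test. Counting error here is that of the reads alone, without PCR duplication. At this depth the strict order of the bounding libraries was thus not resolved for most members, while the difference between group means rests on all 10 libraries. Just inside the ratio limit lay members at 1.2003, 1.2024 and 1.2034, and just outside it genes at 1.1997, 1.1987 and 1.1970. The narrowest gap inside was 67.3 against 67.8 CPM, in the member of rank 91. Just outside, a gene with a ratio of 1.85 was read at 16.82 CPM in its highest exercise and 16.78 CPM in its lowest control library.

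The library nearest to the other group was most often exercise replicate 5, the highest exercise library in 45 of the 123 members. The other exercise libraries were the highest in 16 to 27 members. On the control side, replicate 2 was most often the lowest, in 35 members, and the others in 18 to 26. With each library set on a line from the mean of the other 4 of its group to the mean of the opposite group, exercise replicate 5 lay a median of 15.5% of the way and control replicate 2 a median of 21.1%. The other 8 libraries lay between -10.3% and 5.94%. No such counts or positions are given over all 14163 genes, so none of them is read as particular to the members.

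**Figure D5:**
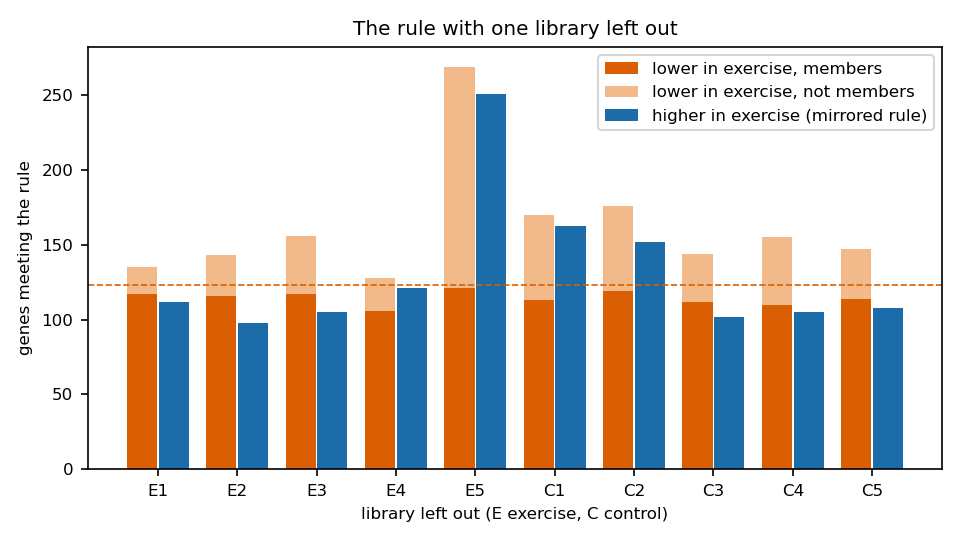
Number of genes meeting the rule when the named library (E exercise, C control) is left out: lower in exercise (orange, with the part that are not members in light orange) and higher in exercise by the mirrored rule (blue). The dashed line marks the 123 members; without exercise replicate 5 the counts were 269 lower and 251 higher, above those for any other library.

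When exercise replicate 5 was left out, 269 genes met the rule, of which 121 were members. Leaving out any other library gave 128 to 176 genes, with 106 to 119 of the members among them. Fewer libraries make the rule easier to meet, so some rise is given by its form. Of the 148 genes added without exercise replicate 5, this library stood at or above the control mean in 61, between the midpoint and the control mean in 69, and below the midpoint in 18. These genes are those that this library kept out of the rule, so its place near the controls follows largely from that choice. The mirrored rule rose alike, from 86 to 251 genes. With exercise replicate 5 and control replicate 1 both left out, 444 genes met the rule, 114 of them members.

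Across all 19325 genes tested, edgeR's quasi-likelihood test called 21 genes lower in exercise at a Benjamini-Hochberg adjusted p below 0.05 (0.109% of those tested). Of the 123 members, all tested, 19 were among them, and the other 2 called genes missed the rule through a ratio under 1.2 and a mean under 5 CPM. As the members were chosen on this contrast, nothing is read from that share. The count of called members changed when single libraries were left out. It was 10, 10, 9, 11 and 38 without exercise replicates 1 to 5 in turn, and 12 and 10 without control replicates 1 and 2. Without control replicates 3, 4 and 5 it was 13, 13 and 21. Each of these fits also had 1 library fewer, and the part of that smaller size in the counts was not tested. Over all genes the count of 21 became 10, 10, 9, 12 and 64 without exercise replicates 1 to 5 in turn. Without control replicates 1 to 5 in turn it became 13, 10, 15, 13 and 23. Called members are part of the called genes, and the rule and the fits used the same contrast. Both series of counts therefore largely move together by construction, and nothing is read from that. By ratio, the 19 held 4 of the 13 members at 2 or more and 6 of the 18 from 1.5 to below 2. They also held 6 of the 31 from 1.3 to below 1.5 and 3 of the 61 below that. The rule used these ratios, and no share of calls over all genes in these classes is given, so nothing is read from these counts. Nfu_g_1_021184 was called and Nfu_g_1_021902 was not. None of the 6 members led by control replicate 1 was called by edgeR. DESeq2, which called 1.43% of its tested genes lower, called 101 of the members. It gave no adjusted p for 4 members, those of ranks 3, 5, 7 and 8, and did not call those of ranks 4 and 29, which are also led by control replicate 1. Voom with sample weights called 0.347% of tested genes lower and 48 of the members.

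Within the groups, members did not vary as a block. After the group mean was taken from each gene's log2(CPM + 1), the median Pearson r between pairs of members was 0.06 over the 10 libraries, with quartiles of -0.22 and 0.33 over 7503 pairs. For all pairs of the 14163 genes the median was 0.02, with quartiles of -0.30 and 0.33, and for the genes of the mirrored rule it was 0.10. All these pairs share libraries and depth, and the values are descriptions. Of the 7503 pairs, 9 had an r above 0.95, and 8 of these were pairs among the members led by control replicate 1. The remaining pair, of ranks 25 and 63, had an r of 0.96. An r above 0.9 was found in 0.333% of the member pairs and in 0.391% of all pairs of the 14163 genes. Tight pairs were thus no more common among the members by that limit.

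The genes most like the leading members within groups were not members. For Nfu_g_1_021902, the 5 genes with the highest r over the 10 libraries (0.898 to 0.936) included none of the 123. The nearest had means of 42.2 CPM in exercise and 43.3 CPM in control libraries. For Nfu_g_1_021184 the 5 nearest genes (r of 0.946 to 0.976) also included no member, and the nearest had means of 19.5 and 17.6 CPM. Highest values among 14163 genes over 10 libraries are large by selection alone. Members made up only 0.868% of these genes, so a set of 5 would seldom hold one, and nothing is read from their absence.

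Some members stood next to each other in the deposited table, whose row order is not explained in the sources used here. Of the 123, 3 pairs were on adjacent rows and 6 pairs within 3 rows of each other, against 1 and 2 pairs for the 86 genes of the mirrored rule. These counts are out of 7503 and 3655 possible pairs, and no share over all genes is given, so nothing is read from them. The adjacent members of ranks 19 and 24 had ratios of 1.70 and 1.59 and a within-group r of 0.45. Those of ranks 47 and 49 had ratios of 1.38 and 1.35 and an r of 0.69, and those of ranks 109 and 111 had ratios of 1.22 and 1.21 and an r of 0.01. Because the library kit does not mark strand, reads of a gene cannot be separated from those of a gene that overlaps it on the other strand. Whether any of these pairs overlap was not tested.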

How the data were processed

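The authors deposited 2 tables with a column for each library, 1 of raw counts per gene and 1 of RPKM. Total RNA was prepared with the TruSeq RNA kit, version 2, per the labels' protocols. The submitters' processing notes name STAR 2.4.1d, featureCounts 1.4.6-p4 and bcl2fastq 1.8.4. The build and the annotation were not given in the sources used here. CPM used column sums of the counts. The deposited RPKM values had been divided by the 10 library totals in turn down the columns, a rule that gave 99.997% of 218026 values to within 0.0011, so they served only to recover gene lengths (22897 genes) and never levels.

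All genes were tested in edgeR 4.0.16 (R 4.3.3) with filterByExpr, TMM scaling, robust quasi-likelihood estimation, no covariate and Benjamini-Hochberg adjustment. DESeq2 1.42.0 and limma 3.58.1 (voom with sample weights) were alternatives, with other scalings, filters, thresholds and the omission of each library. SEs are the log2 fold change over the square root of F. The procedures were tested on simulated counts. Correlations used a pseudocount of 1 CPM. Members and alternatives were chosen with earlier results of these data known. The rule for named genes took the members of largest and second largest ratio, since no row had a symbol; other members were described by place, among them the most counted, those of largest and smallest separation, those at the edges of the rule and those with 1 library apart. The marker lists could not be applied and were not scored.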

Additional observations from a re-analysis of the deposited data

Results flagged for a closer look

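Each group of 5 values was compared with Dixon's 95% limit of 0.71 for the gap of the extreme library over the range of the group. Over the 246 sets formed by 123 members and both groups, 21 passed it, where chance flags about 1 in 20. The members were chosen for groups that do not overlap, so these sets are not a random draw.

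Control replicate 1 was high in 6 members, those of ranks 3, 4, 5, 7, 8 and 29, at 224, 36.8, 56.6, 151, 33.3 and 19.3 CPM. It was low in the member of rank 70, at 269 CPM against 302 to 313 CPM in the other controls. Control replicate 5 was high in the members of ranks 11, 16, 35 and 37, at 28.7, 261, 27.5 and 34.9 CPM, and low in those of ranks 91 and 119, at 67.8 and 279 CPM. Control replicate 2 was low in Nfu_g_1_021902, the member of rank 1, at 7.89 CPM. Control replicate 3 was high in the member of rank 103, at 58.1 CPM.

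Exercise replicate 4 was low in the members of ranks 89, 104 and 107, at 22.5, 176 and 290.2 CPM. Exercise replicate 5 was high in those of ranks 9 and 24, at 6.07 and 19.97 CPM. Exercise replicate 1 was low in the member of rank 87, at 9.62 CPM against 13.8 to 14.9 CPM in the other exercise libraries. The depth of exercise replicate 2, 38.1 M counts (M, 1000000), was also beyond the limit in its group. The part of depth in the values of the members was not tested.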

How the results depend on the processing

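The rule gave 126 to 132 genes under 3 other scalings, with 111 to 116 of the 123 members among them. It gave 186 genes without a minimum CPM, 237 without a minimum ratio and 31 at a ratio of 1.5. Chosen after seeing the data, a ratio of group medians gave 106 genes (102 of them members), and leaving out exercise replicate 5 and control replicate 1 together gave 444. Leaving out each library gave 128 to 269 genes, the highest without exercise replicate 5. The median ratio of the members then lay between 1.28 and 1.32.

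Of the members, DESeq2 called 101 lower, voom with sample weights 48, and edgeR 52 and 9 at adjusted p thresholds of 0.10 and 0.01. The same settings called 226, 67, 67 and 9 of all genes lower. The cause was not tested. With each library left out, edgeR called 9 to 38 members and 9 to 64 of all genes, in both cases most without exercise replicate 5. It called 10, 10, 9 and 11 members without exercise replicates 1 to 4 in turn, and 12, 10, 13, 13 and 21 without control replicates 1 to 5 in turn. The same fits called 10, 10, 9 and 12, and 13, 10, 15, 13 and 23, of all genes lower. The median r between members was 0.094 with TMM scaling, 0.083 in exercise libraries alone and 0.035 to 0.075 with each library left out. The median length was 4234 bp for members of 20 CPM or more. No paired analysis was possible because the labels give the groups no shared numbers.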
